A study of Mus musculus with 21 samples.

Results

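The proteasome genes of mouse quadriceps muscle were followed through recovery from an exhaustive treadmill run. They were taken from the table of expression values by their symbols, as every gene named Psma, Psmb, Psmc, Psmd, Psme, Psmf or Psmg with a number, with pseudogenes left out. This gave 49 of the 53738 gene symbols in the table, which comprised 19 genes of the 20S core (8 alpha and 11 beta subunits), 20 genes of the 19S particle (6 ATPases and 14 non-ATPase subunits), 5 activator genes, the inhibitor gene Psmf1 and 4 assembly factor genes. All 49 were annotated as protein-coding genes on GRCm39 and lay on 16 chromosomes. Of these, 46 reached a mean of 1 TPM (a share of a library's transcripts, corrected for transcript length) and were tested among 11819 genes.

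The 7 groups held 3 libraries each, made from bulk quadriceps of wild-type C57/Bl6 male mice aged 22 to 26 weeks at sacrifice. The sedentary group neither trained nor ran. Untrained mice ran a bout to exhaustion and were sacrificed 0 h, 6 h or 72 h later. Trained mice ran the same kind of bout after 12 weeks of voluntary wheel running, with no rest period between training and bout. The comparisons ask how the genes move after exercise and whether training changes that course. No group was trained without running the bout. Differences of trained from sedentary or untrained muscle therefore cannot tell a resting effect of training from a changed response to the bout. The sources used here do not say whether libraries of a group came from separate mice, so p-values measure only the spread between these libraries.

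The column of untrained 0 h replicate 1 was identical to that of trained 0 h replicate 1 in all 53738 values, of which 25037 were above 0, while the next most similar pair had 10 equal values above 0. This library therefore entered 2 groups, and 20 libraries were distinct. It was the highest of the untrained 0 h group in 42 of 46 tested genes and the highest of the trained 0 h group in 39 of 46. Passing members and the members' medians at 0 h against sedentary muscle are therefore also given without it. Partner genes, counts of separated libraries and shares of all genes that involve 0 h rest on all libraries unless stated. Without the shared library, 4.25% (untrained) and 5.53% (trained) of all genes passed at 0 h against sedentary muscle. Transcripts of the mitochondrial genome took 37.7% to 48.0% of the TPM of a library, from 37.7% to 40.6% at 0 h to 46.7% to 48.0% in trained muscle at 72 h, against 42.2% to 46.9% in sedentary muscle. A change in that share moves the TPM of all nuclear genes together, so the median of all tested genes is given beside the members. Myofibre markers matched the labelled tissue, with Acta1 between 16391 and 22062 TPM, while summed markers were between 0.718 and 1.65 TPM for lymphocytes and between 37.3 and 84.6 TPM for macrophages. Endothelial markers summed to 53.9 to 77.0 TPM, fibro-adipogenic markers to 154 to 405 TPM and red blood cell markers to 225 to 805 TPM. In bulk tissue, fewer cells of a type and less RNA per cell cannot be told apart.

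The proteasome degrades proteins that carry ubiquitin chains. Its 20S core is a stack of alpha and beta rings in which Psmb5, Psmb6 and Psmb7 cleave peptide bonds, and its 19S particle recognises ubiquitin, unfolds the substrate with 6 ATPases and opens the core. Alternative catalytic subunits (Psmb8, Psmb9 and Psmb10) replace the standard ones in the immunoproteasome, activators of the Psme family cap the core in place of the 19S particle, and Psmg proteins assist the assembly of the core. In muscle, this system removes contractile and damaged proteins during remodelling and atrophy.

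In sedentary muscle and after exercise, proteasome genes were expressed well above the middle of the expression range. The median of the 46 tested members was 38.0 TPM, against 5.35 TPM over all tested genes, and 38 of 46 lay above the latter. Mean levels over the 21 libraries ran from 18.6 TPM (Psma2) to 105 TPM (Psma3) among the alpha subunits, and from 1.31 TPM (Psmb9, the immunoproteasome replacement of Psmb6) to 115 TPM (Psmb6) among the beta subunits. The ATPases ranged from 32.3 TPM (Psmc4) to 81.7 TPM (Psmc3). The non-ATPase subunits ranged from 3.62 TPM (Psmd10, a chaperone of 19S assembly rather than a subunit of the mature particle) to 101 TPM (Psmd8). Among activators, Psme2 was lowest at 16.96 TPM and Psme4, the single-chain activator PA200, highest at 36.5 TPM. Psmf1 reached 3.55 TPM, and the assembly factors were low, from 4.49 TPM (Psmg4) to 11.6 TPM (Psmg2). The 3 members that were not tested were the germ cell subunit Psma8 (at most 0.0615 TPM), the thymic subunit Psmb11 (0.0807 to 0.177 TPM) and Psme2b (0 to 0.852 TPM), whose sequence is close to that of Psme2 so that reads may be split between them.

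The fold changes of most proteasome genes were small, and Psmd11 stood apart from the other members at 6 h. The plot of fold changes by comparison shows both features. A gene passed at an adjusted p below 0.05 at any fold, and was called at the fold threshold when it also changed by about 1.5 times or more in either direction.

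**Figure D1:**
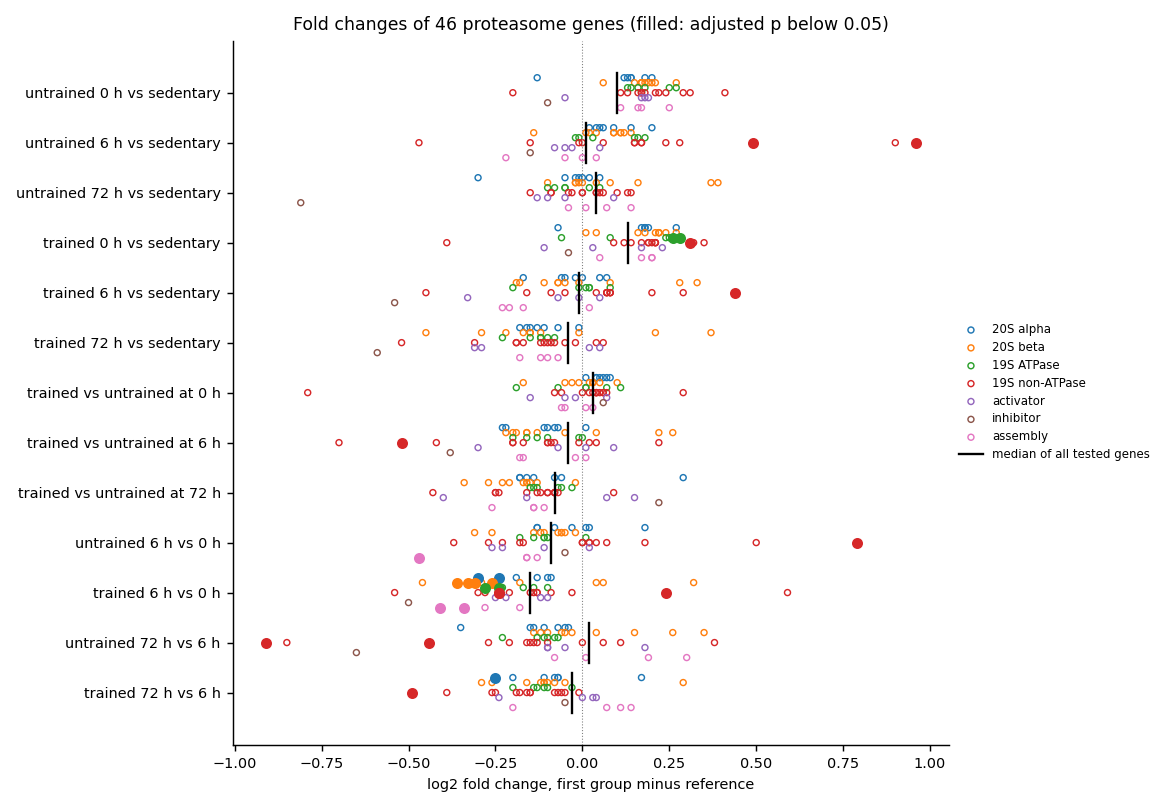
Log2 fold change (x axis, first group minus reference, on the log2(TPM + 0.5) scale) of the 46 tested proteasome genes in each of 13 comparisons (rows). Each point is 1 gene, coloured by class, filled where the adjusted p is below 0.05, and black lines mark the median of all 11819 tested genes. Psmd11, a non-ATPase gene, lies far right in untrained muscle at 6 h (0.96) and far left from 6 h to 72 h (-0.91), while most other genes lie near 0.

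Psmd11 encodes a subunit of the lid of the 19S particle that bridges lid and base. The gene spans chr11:80319400-80364074 on GRCm39, on the forward strand, and none of its exonic bases was shared with another annotated gene. Its promoter is shown because its course differed from that of the other 19S genes, and that of Psmd8, another lid subunit, because it was the other member that rose in untrained muscle at 6 h. The windows cover 250 bases before to 50 bases after the RefSeq start (table build GRCm38.p6) and were matched exactly to GRCm39 at chr11:80319191-80319490 on the forward strand and chr7:28880049-28880348 on the reverse strand. Capitals mark the first 50 transcribed bases.
Psmd11: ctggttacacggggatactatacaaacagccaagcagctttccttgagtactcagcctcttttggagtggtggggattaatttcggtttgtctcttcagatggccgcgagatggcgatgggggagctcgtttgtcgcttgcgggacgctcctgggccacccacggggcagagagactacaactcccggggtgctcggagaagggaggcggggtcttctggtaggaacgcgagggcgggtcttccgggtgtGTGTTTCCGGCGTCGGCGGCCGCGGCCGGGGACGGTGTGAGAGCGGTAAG
Psmd8: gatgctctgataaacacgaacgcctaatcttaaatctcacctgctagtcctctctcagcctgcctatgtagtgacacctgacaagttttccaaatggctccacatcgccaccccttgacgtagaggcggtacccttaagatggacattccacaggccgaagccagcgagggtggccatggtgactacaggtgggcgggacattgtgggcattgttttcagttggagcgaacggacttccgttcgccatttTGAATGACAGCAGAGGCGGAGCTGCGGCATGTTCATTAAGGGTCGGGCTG
The Psmd11 window had a GC content of 61.7% and that of Psmd8 53.7%. Neither window held any of the 7 motifs searched on both strands, which were the antioxidant response element (TGACNNNGC, the site of the Nrf factors), the NF-Y box (CCAAT), the interferon element (GAAA, any 2 bases and GAAA), the STAT site (TTCNNNGAA), the heat shock element (GAANNTTC), the AP-1 site (TGANTCA) and the cyclic AMP element (TGACGTCA). The antioxidant, AP-1 and cyclic AMP elements begin alike, so 1 stretch can match more than 1 of them.

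Psmd11 was between 26.6 and 29.9 TPM in the 3 sedentary libraries (29.6, 26.6 and 29.9). Immediately after exercise, untrained libraries held 34.9, 30.9 and 30.9 TPM and trained libraries 34.9, 32.2 and 32.0 TPM, each with the shared library first. At 6 h, levels of 54.9, 59.0 and 54.6 TPM were measured in untrained muscle, compared to 44.1, 37.8 and 35.8 TPM in trained muscle. All untrained 6 h libraries lay above every other library of the series, and all trained 6 h libraries lay above the sedentary and 0 h libraries but below those of untrained muscle. At 72 h, untrained libraries held 30.3, 31.4 and 27.4 TPM and trained libraries 25.6, 28.5 and 29.1 TPM, which overlapped with sedentary muscle in both cases.

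The mean of untrained muscle at 6 h was 56.2 TPM and that of sedentary muscle 28.7 TPM, a log2 fold change of 0.96 ± 0.08 (SE, n = 3 against 3, adjusted p = 1.92e-06, limma over all tested genes), and 29 of 11819 genes had a smaller p. It was higher than at 0 h by 0.79 ± 0.08 on the log2 scale (adjusted p = 1.86e-05) and fell by 0.91 to 72 h (SE 0.08, adjusted p = 3.71e-06). These 3 differences passed in every one of 17 alternative settings each, with log2 values of 0.89 to 0.99, 0.76 to 0.90 and -0.95 to -0.85. Trained muscle at 6 h was 0.44 ± 0.08 above sedentary muscle on the log2 scale (adjusted p = 0.0032). The direct comparison of trained with untrained muscle at 6 h gave a log2 difference of -0.52 ± 0.08 (adjusted p = 0.00181), so the level at 6 h was lower after training. Both passed in 16 of 17 settings and were lost when only the 2 groups compared were fitted (adjusted p = 0.0826 and 0.165). In trained muscle, the difference of 6 h from 0 h was 0.24 (adjusted p = 0.0470), and 0.15 (adjusted p = 0.214) without trained 6 h replicate 1. It was 0.41 (adjusted p = 0.00165) after median-of-ratios scaling. This difference passed in 9 of 17 settings and was lost in 8. From 6 h to 72 h, Psmd11 fell by 0.49 in trained muscle (adjusted p = 0.00148, and 0.0556 with only the 2 groups compared).

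The change of Psmd11 was also visible within the libraries. Relative to the median of the other 19S genes of the same library, its level was 0.744 ± 0.017 (SD, n = 3) in sedentary muscle, 0.746 ± 0.023 and 0.733 ± 0.00802 at 0 h in untrained and trained muscle, and 1.29 ± 0.0577 in untrained muscle at 6 h. In trained muscle at 6 h, the ratio was 0.948 ± 0.126, and at 72 h it was 0.782 ± 0.0442 (untrained) and 0.770 ± 0.0152 (trained). A ratio within a library does not depend on the share of the mitochondrial genome.

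**Figure D2:**
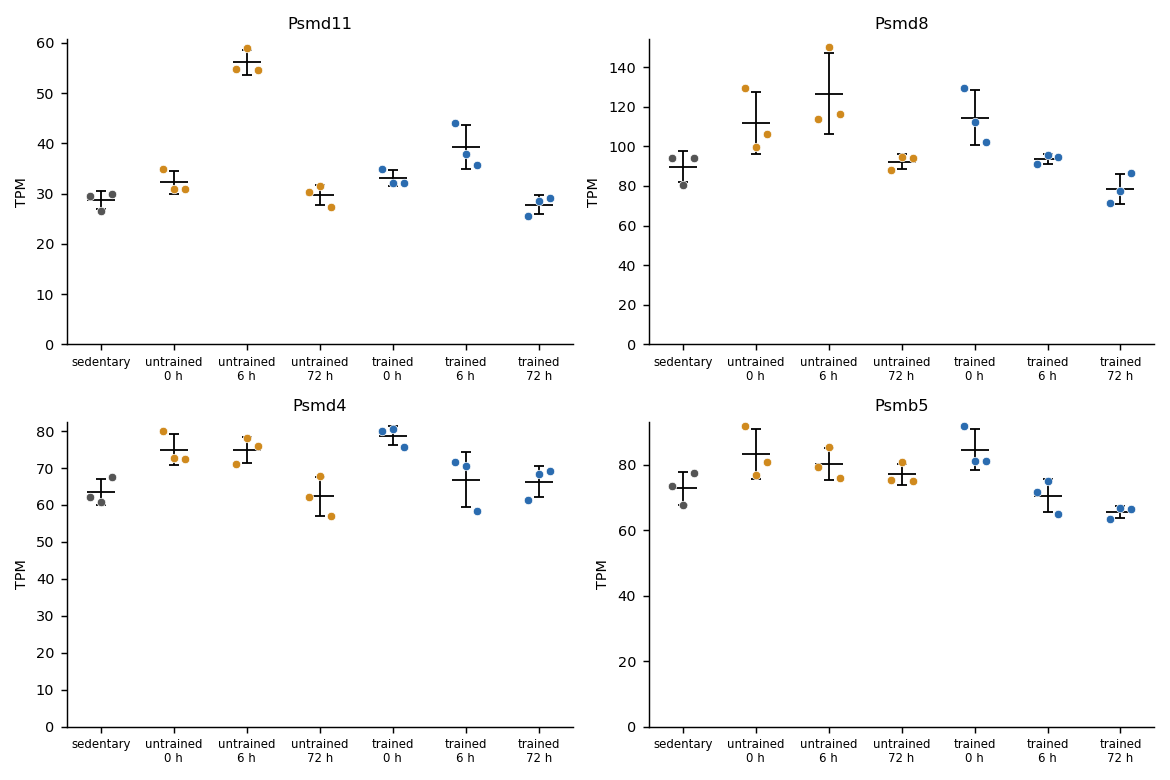
TPM (y axis, from 0) of Psmd11, Psmd8, Psmd4 and Psmb5 by group (x axis), with 1 point per library and the mean ± SD in black (n = 3). The untrained 6 h libraries of Psmd11 lie between 54.6 and 59.0 TPM, above all others, while the groups of Psmd4 and Psmb5 differ by less.

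At 6 h in untrained muscle, 2 of 46 members rose compared to sedentary muscle and 0 fell, while 9.47% of all tested genes passed in either direction. Psmd11 alone was called at the fold threshold, against a background of 4.42%, and 6 members had an unadjusted p below 0.05 (2574 of all 11819 tested genes). The other member that rose was Psmd8, from 93.9, 80.6 and 94.3 TPM in sedentary muscle to 114, 150 and 116 TPM, with a log2 fold change of 0.49 ± 0.12 (adjusted p = 0.0162). Its groups did not overlap, but untrained 6 h replicate 2 stood far above its neighbours, and without it the fold change was 0.36 (adjusted p = 0.0845). Without sedentary replicate 2 it was 0.41 (adjusted p = 0.0783). The 3 libraries of the group were all above sedentary muscle in 8 of 46 members, against 11.7% of all tested genes. The median log2 fold change of the members was 0.06, and that of all genes 0.01. Psmd4, the subunit that binds ubiquitin chains, had a log2 fold change of 0.24 (adjusted p = 0.0941). The 7 alpha subunits ranged from 0.02 to 0.20, the 10 beta subunits from -0.14 to 0.14 and the 6 ATPases from -0.02 to 0.18, and no member of these classes passed.

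At 6 h in trained muscle, Psmd11 was the only member of 46 that passed compared to sedentary muscle, while 10.4% of all genes did. At the fold threshold, 0 members were called, against 3.85% of all genes. Members and all genes had the same median log2 fold change of -0.01. Between trained and untrained muscle at 6 h, Psmd11 was again the only member that passed, compared with 4.56% of all genes, and 0 members were called at the fold threshold (2.01% of all genes). Psmd8 was 90.9, 95.7 and 94.6 TPM in trained muscle, below all untrained libraries, with a log2 difference of -0.42 (adjusted p = 0.0590). In 12 of 46 members all trained libraries were lower than the untrained ones, against 11.5% of all genes. The catalytic subunits were among them, with log2 differences of -0.19 for Psmb5, -0.20 for Psmb6 and -0.16 for Psmb7 (adjusted p = 0.213, 0.180 and 0.325). The median of the members was -0.10 and that of all genes -0.04. With the mitochondrial genome and the 10 highest genes removed before rescaling, these medians were -0.01 and 0.05.

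Immediately after exercise, proteasome genes were slightly higher than in sedentary muscle, as were genes in general. In untrained muscle, 0 of 46 members passed by limma (13 at an unadjusted p below 0.05, as did 2860 of all 11819 genes), while 7.46% of all genes passed and 3.59% were called at the fold threshold. In trained muscle, 3 members rose and 0 fell, against 9.37% of all genes. At the fold threshold 0 members were called (3.74% of all genes). The 3 were Psmd4, which rose from 62.3, 60.8 and 67.6 TPM to 79.9, 80.5 and 75.8 TPM (log2 fold change 0.31 ± 0.08, adjusted p = 0.0303), and the ATPase genes Psmc4 (0.26, adjusted p = 0.0399) and Psmc5 (0.28, adjusted p = 0.0490). None of the 3 passed without the shared library, nor without sedentary replicate 1 or sedentary replicate 2. Psmd4 was then at 0.30, 0.29 and 0.28 (adjusted p = 0.0872, 0.101 and 0.121). Without trained 0 h replicate 2 or trained 0 h replicate 3, 1 member passed in each case. The share of all genes was not counted in either fit. After median-of-ratios scaling, Psmd4 was at 0.15 (adjusted p = 0.304). All libraries were above sedentary muscle in 13 members at 0 h in untrained muscle (22.9% of all genes) and in 23 members in trained muscle (26.3% of all genes). The members had medians of 0.17 and 0.19, against 0.10 and 0.13 for all genes, and without the shared library medians of 0.09 and 0.11, against 0.08 and 0.12. The mitochondrial share was lower at 0 h than in any sedentary library, and after rescaling without that genome and the 10 highest genes together the members' medians were 0.00 in both groups, against -0.05 and -0.04 for all genes. Trained and untrained muscle at 0 h share this library, and 0 members and 0% of all genes passed between them, at any fold and at the fold threshold. Of the members, 0 had an unadjusted p below 0.05 in that comparison, while 143 of all 11819 genes did.

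At 72 h, no member of any proteasome class passed against sedentary muscle, and classes as wholes were not tested. In untrained muscle, 0 of 46 members passed (3 at an unadjusted p below 0.05, as did 682 of all 11819 genes), where only 0.00846% of all genes passed, and the same share was called at the fold threshold. In trained muscle, 0 members passed (6 unadjusted, against 1379 of all genes), where 0.254% of all genes passed and 0.169% were called at the fold threshold. Of the 46 members, 40 had a negative log2 fold change in trained muscle, as did 7243 of all 11819 genes, with medians of -0.12 and -0.04. After median-of-ratios scaling 36 were negative (median -0.07, all genes -0.00), and without the mitochondrial genome and the 10 highest genes 32 were (median -0.04, all genes 0.03). Negative genes were not counted over all genes under these scalings. In 14 members all libraries were below sedentary muscle (13.8% of all genes). The deepest of the catalytic subunits was Psmb6, the caspase-like site, at 91.3, 95.5 and 98.2 TPM in trained muscle compared to 116, 111 and 121 TPM in sedentary muscle (log2 fold change -0.29, adjusted p = 0.127). Summed over the standard core subunits, the level was 809 ± 15.4 TPM (SD, n = 3) in trained muscle at 72 h and 915 ± 43.0 TPM in sedentary muscle. Between trained and untrained muscle at 72 h, 0 members passed (6 unadjusted, against 1769 of all genes), with backgrounds of 0.415% and, at the fold threshold, 0.245%. In 41 of 46 members the log2 fold change was negative, as it was in 8238 of all 11819 genes. In 19 members all trained libraries were lower (24.6% of all genes). The medians were -0.14 for the members and -0.08 for all genes. After rescaling without the mitochondrial genome and the 10 highest genes, 28 of 46 were negative and the medians were -0.03 and 0.02.

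The steps of recovery were compared within each training state. From 0 h to 6 h in untrained muscle, Psmd11 rose and Psmg1 fell, with 11.7% of all genes passing and 4.64% called at the fold threshold, where Psmd11 was the member called. Psmg1, which forms a heterodimer with Psmg2 that guides the alpha ring, was at 6.41, 5.35 and 5.53 TPM at 0 h and at 3.61, 4.54 and 3.90 TPM at 6 h, without overlap. Its log2 fold change was -0.47 ± 0.11 (adjusted p = 0.00996), and -0.40 (adjusted p = 0.0534) without untrained 0 h replicate 1. When the shared library was removed from the trained group as well, the value was -0.40 with an adjusted p of 0.0358.

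In trained muscle, 1 member (Psmd11) rose and 12 fell from 0 h to 6 h, a step in which 25.1% of all genes passed and 6.46% were called at the fold threshold, with 0 members called. Those that fell were 2 alpha subunits (Psma4 and Psma7), 4 beta subunits (Psmb3 and the 3 catalytic subunits Psmb5, Psmb6 and Psmb7), 2 ATPases (Psmc4 and Psmc5), Psmd3 and Psmd4 of the 19S particle, and the assembly pair Psmg1 and Psmg2. The rise of Psmd11 passed in 9 of 17 settings, as given above. The falls were small. Psmb6 moved from 144, 126 and 126 TPM to 99.5, 107 and 100.4 TPM (log2 fold change -0.36 ± 0.08, adjusted p = 0.00355), Psmg2 by -0.34 (adjusted p = 0.00920) and Psmg1 by -0.41 (adjusted p = 0.0132), while the other 9 lay between -0.33 and -0.24. In 23 of 46 members all 6 h libraries were below those at 0 h, against 34.5% of all genes. The median of the members was -0.22 and that of all genes -0.15. The 12 falls depended on the scaling, since 0 members fell after median-of-ratios scaling and 0 with the mitochondrial genome and the 10 highest genes removed together, in which the members' medians were -0.05 and -0.01 (all genes 0.00 and 0.04). Without the shared library 4 fell (Psmb3, Psmb6, Psmb7 and Psmg2) and 2 rose (Psmd11 and Psmb9), while 16.5% of all genes passed in that fit. Without trained 6 h replicate 1 the number that passed was 7, without replicate 3 of that group 5, and without trained 0 h replicate 1 it was 2. Shares of all genes that passed were not counted for these omissions of 1 library or for either scaling.

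From 6 h to 72 h in untrained muscle, Psmd11 and Psmd8 fell and 0 members rose, with 9.04% of all genes passing. The median of the members was -0.10, with 35 of 46 negative, and that of all genes 0.02, with 5446 of 11819 negative. After median-of-ratios scaling the medians were -0.11 and 0.00, and 6 members fell. The share of all genes that passed under that scaling was not counted. Psmd11 was called at the fold threshold (4.04% of all genes). Psmd8 fell by 0.44 on the log2 scale (adjusted p = 0.0282), to 87.8, 94.7 and 94.2 TPM, and by 0.32 without untrained 6 h replicate 2 (adjusted p = 0.123). Leaving out any one of the untrained 72 h libraries also ended this call (adjusted p = 0.102, 0.0654 and 0.0639). In trained muscle, Psmd11 and Psma1 fell, against 9.21% of all genes that passed and 3.48% called at the fold threshold, with 0 members called. Psma1, an alpha ring subunit, was 42.2, 43.6 and 41.5 TPM at 6 h and 34.6, 37.0 and 35.1 TPM at 72 h (log2 fold change -0.25, adjusted p = 0.0489), and the call was lost without any one of the 6 libraries compared (adjusted p of 0.0756 to 0.147).

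**Figure D3:**
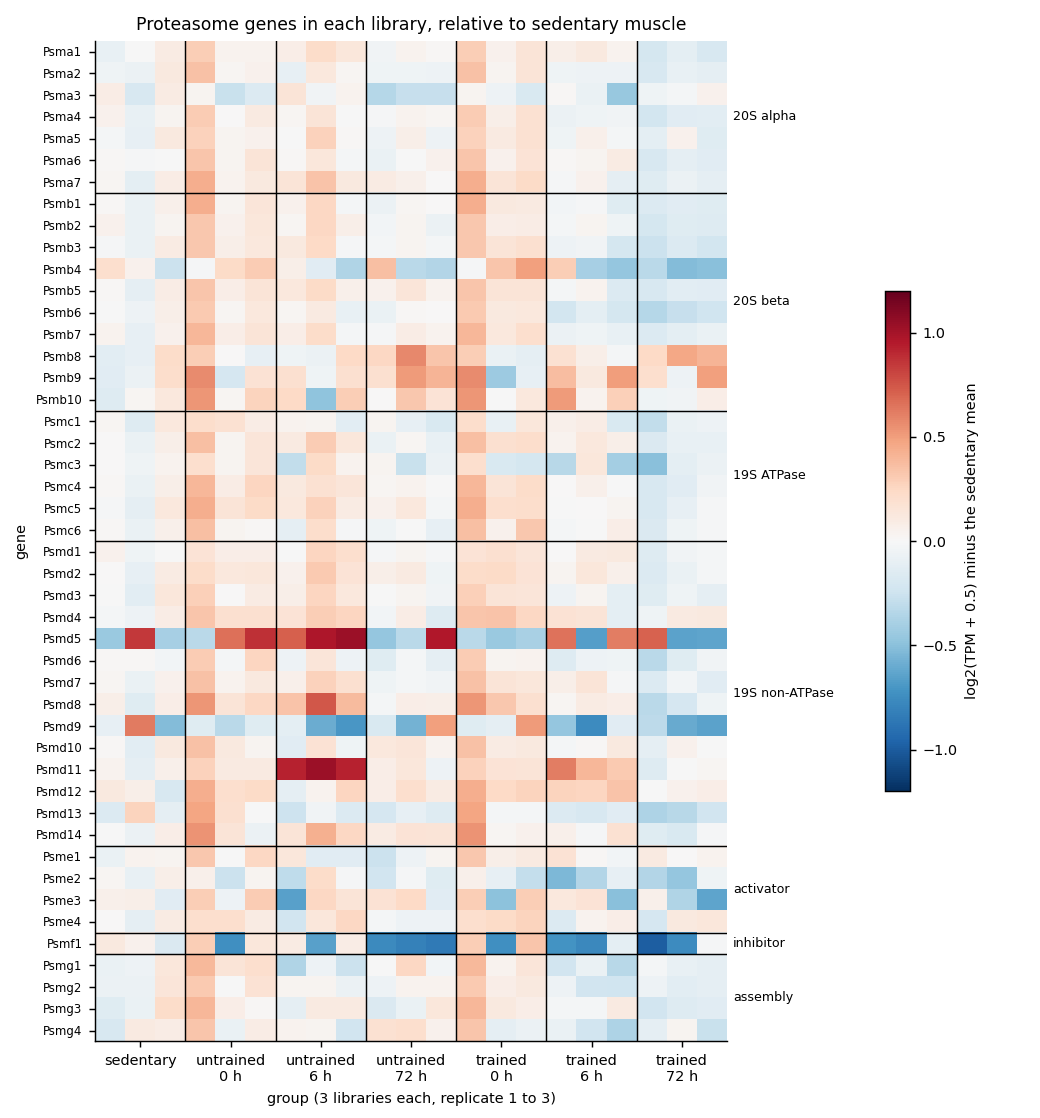
Log2(TPM + 0.5) of the 46 tested proteasome genes (rows, by class) in each of the 21 libraries (columns, 3 per group), minus the mean of the sedentary libraries. Red is higher and blue lower than sedentary muscle. The row of Psmd11 is red in the 6 h groups, the shared library (first of both 0 h groups) is red in most rows, and Psmd5, Psmd9 and Psmf1 alternate within groups.

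The immunoproteasome subunits were rare next to the standard subunits they replace. Psmb8 was 3.47 ± 0.398% of Psmb5 in sedentary muscle (SD, n = 3), Psmb9 was 0.931 ± 0.143% of Psmb6, and Psmb10 was 7.11 ± 0.837% of Psmb7. At 72 h, the Psmb8 share was 4.49 ± 0.435% in untrained muscle (4.11%, 4.96% and 4.39%) and 5.20 ± 0.337% in trained muscle (4.83%, 5.49% and 5.28%), above all sedentary libraries (3.09% to 3.89%) in both groups. The level of Psmb8 itself was 2.27, 2.32 and 3.02 TPM in sedentary muscle, 3.09, 4.01 and 3.30 TPM in untrained and 3.07, 3.67 and 3.50 TPM in trained muscle at 72 h. Its log2 fold changes were 0.39 (adjusted p = 0.801) and 0.37 (adjusted p = 0.298), and neither passed. The summed level of 10 macrophage markers, of which 0 were at 0 in every library, was 64.3 to 69.2 TPM in untrained muscle at 72 h, 47.4 to 54.7 TPM in trained muscle at 72 h and 44.9 to 49.2 TPM in sedentary muscle. Their part in the Psmb8 level was not tested. Psmb9 and Psmb10 passed in no comparison with all libraries. Without the shared library, Psmb9 rose by 0.60 on the log2 scale from 0 h to 6 h in trained muscle (adjusted p = 0.0466). Psmb9 shares 743 exonic bases with Tap1 on the opposite strand, and reads of the 2 genes cannot be told apart there without strand.

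**Figure D4:**
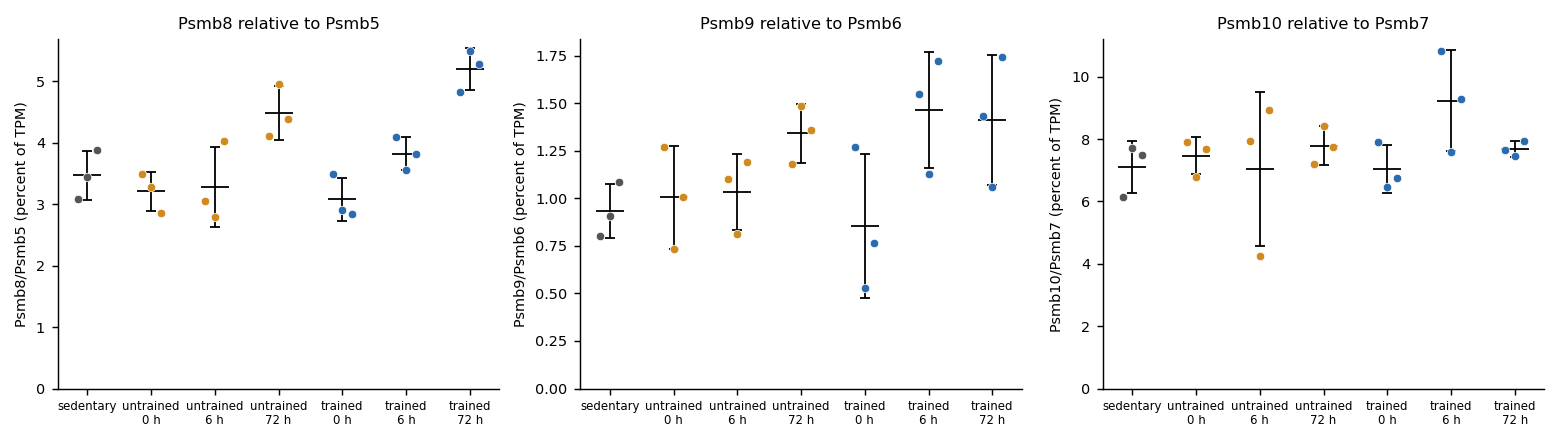
TPM of Psmb8, Psmb9 and Psmb10 as a percentage of Psmb5, Psmb6 and Psmb7 (y axes, from 0) by group (x axis), with 1 point per library and the mean ± SD in black (n = 3). The 6 libraries at 72 h lie between 4.11% and 5.49% for Psmb8, above the sedentary libraries (3.09% to 3.89%).

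The activators and the inhibitor did not pass in any comparison. Psme1 and Psme2, the subunits of the PA28 ring that accompanies the immunoproteasome, were at 21.6 ± 1.05 and 18.5 ± 1.11 TPM in sedentary muscle. In trained muscle at 6 h, Psme2 was at 12.59, 14.36 and 17.29 TPM, against 18.78, 17.31 and 19.49 TPM in sedentary muscle (log2 fold change -0.33, adjusted p = 0.181). The groups did not overlap, but their nearest libraries were almost equal. Psme3, the nuclear PA28 subunit, varied between 12.6 and 25.0 TPM, and Psme4 rose in no comparison, with 35.0 ± 2.55 TPM in sedentary muscle and 41.1 ± 1.05 TPM in trained muscle at 0 h (log2 fold change 0.23, adjusted p = 0.186). Among the assembly factors, Psmg3 was between 3.70 and 6.00 TPM and Psmg4 between 3.36 and 5.77 TPM, and neither passed in any comparison.

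Some members fell into separate levels that did not follow the groups. Psmd5, a chaperone of the 19S base, was between 2.28 and 3.01 TPM in 10 of the 20 distinct libraries and between 6.2 and 8.41 TPM in the other 10, with no library in between. All 3 untrained 6 h libraries were in the upper range and all trained 0 h libraries in the lower, and the remaining groups held both. Psmf1, also known as the proteasome inhibitor PI31, was between 1.91 and 2.55 TPM in 10 libraries and between 3.76 and 5.52 TPM in 10. All untrained 72 h libraries lay in the lower range (2.33, 2.23 and 2.16 TPM) and all sedentary libraries in the upper (4.70, 4.48 and 3.76 TPM), which gave a log2 fold change of -0.81 ± 0.33 that did not pass (adjusted p = 0.837). Psmd9, another base chaperone, was between 3.66 and 6.03 TPM in 17 libraries and between 9.31 and 10.2 TPM in 3. With Psme3, these were the 4 members whose SD within groups exceeded 0.3 on the log2 scale. The median of this SD was 0.116 over the members and 0.148 over all tested genes. These sets were not matched for level (median 38.0 and 5.35 TPM). The annotation lists 25 transcripts of 423 to 6498 bases for Psmd5 and 28 of 683 to 3837 bases for Psmf1, and a TPM value depends on the transcript length to which reads are assigned. The deposited table is per gene, and the part of transcript choice was not tested. Psmd5 and Psmf1 also share 1103 and 942 exonic bases with a gene on the opposite strand.

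**Figure D5:**
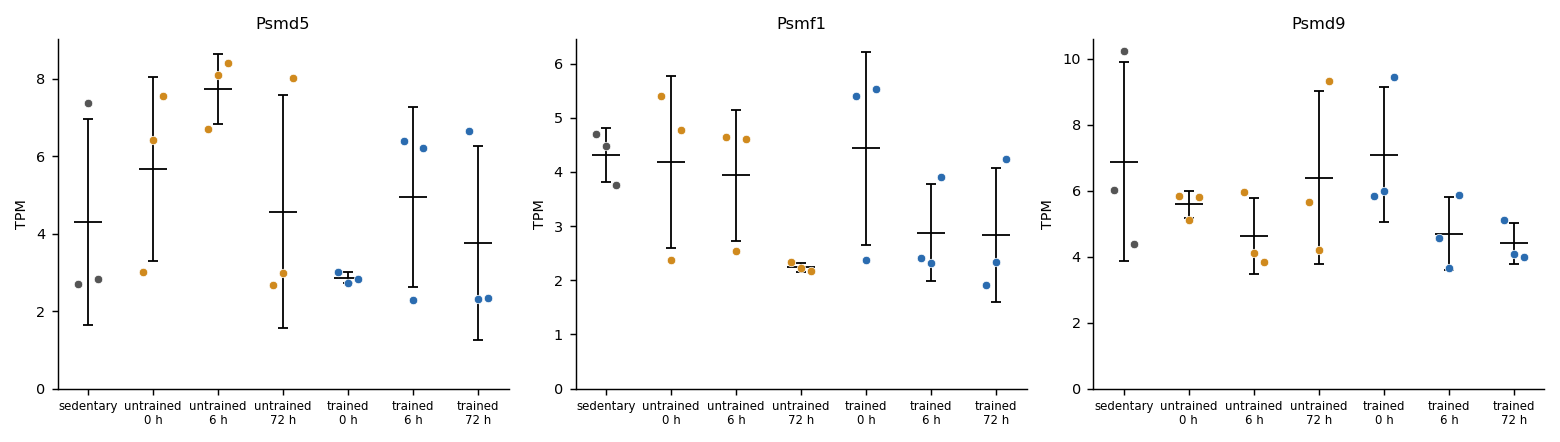
TPM (y axis, from 0) of Psmd5, Psmf1 and Psmd9 by group (x axis), with 1 point per library and the mean ± SD in black (n = 3). Within several groups of Psmd5, libraries lie either below 3.01 or above 6.2 TPM, and the error bars are correspondingly wide.

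Across the 20 distinct libraries, the members rose and fell together to a degree that depended on the scaling. The median correlation of a member with the mean of the other members was r = 0.752 on the log2(TPM + 0.5) scale, with 26 of 46 at 0.7 or more and 6 below 0.3. After median-of-ratios scaling the median was 0.454, with 16 of 46 at 0.7 or more and 14 below 0.3. These libraries share the groups and the mitochondrial share described above, so the values are a description. No matching value was computed for other genes, so the correlation is not shown to be particular to the proteasome. Psmb8 was the member with the lowest correlation (r = -0.318).

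Genes around the proteasome were read from 4 lists of partner genes. Nfe2l1, the transcription factor that drives proteasome genes when proteasome activity falls, passed in no comparison, nor did Adrm1, a ubiquitin receptor of the 19S particle, nor Pomp, the maturation factor of the core, which varied widely within groups (23.4 to 69.9 TPM in untrained muscle at 0 h). Of 11 genes of the Nrf factors and their partners, 3 rose at 0 h in untrained and 4 in trained muscle, where 7.46% and 9.37% of all genes passed. Nfe2l2 rose by 1.23 and 1.34 on the log2 scale (adjusted p = 1.82e-05 and 7.40e-06), and the small Maf partner Maff by 2.25 and 2.66 (adjusted p = 2.82e-07 and 4.51e-08). At 6 h, 2 of the 11 rose in untrained muscle (Mafg and Mafk, the latter by 0.57 with adjusted p = 0.0280) and 0 in trained muscle (9.47% and 10.4% of all genes). At 6 h, training went with a lower Maff level than in untrained muscle (-0.63, adjusted p = 0.0403), the 1 of the 11 that passed there (4.56% of all genes). From 0 h to 6 h, 3 of the 11 fell in untrained and 5 in trained muscle, led by Maff (-1.75 and -2.78), in steps in which 11.7% and 25.1% of all genes passed. From 6 h to 72 h, 3 fell in untrained muscle and 1 rose in trained muscle, which was Ddi2, the protease that activates Nfe2l1 (0.54, adjusted p = 0.0486), against 9.04% and 9.21% of all genes. Of 5 tested genes of ubiquitin and its activating enzymes, Ubb and Uba1 rose at 0 h in both states (7.46% and 9.37% of all genes). Ubb, which encodes a polyubiquitin precursor, was 528 TPM in untrained muscle at 6 h, 371 TPM in trained muscle at 6 h and 330 TPM in sedentary muscle. Its log2 differences were 0.67 (untrained at 6 h against sedentary, adjusted p = 1.37e-04) and -0.51 (trained against untrained at 6 h, adjusted p = 0.00327), next to 0.96 and -0.52 for Psmd11.

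Of 19 tested proteasome-associated proteins, 3 rose at 0 h in untrained muscle (the deubiquitinase gene Uchl5, the shuttle gene Ubqln1 and Zfand2a, a stress-induced partner of the 19S particle) and 2 in trained muscle (Ubqln1 and Zfand2a), where 7.46% and 9.37% of all genes passed. Zfand2a rose by 1.04 and 0.88 on the log2 scale (adjusted p = 7.61e-04 and 0.00314) and was still higher at 6 h in untrained muscle (0.94, adjusted p = 0.00169), where Ubqln1 was also higher (0.44, adjusted p = 0.00331). These were 2 of the 19 at 6 h in untrained muscle (9.47% of all genes), and in trained muscle at 6 h 0 of the 19 passed (10.4% of all genes). Of the 19, 3 fell from 0 h to 6 h in trained muscle, where 25.1% of all genes passed, led by Sem1, a small lid subunit (-0.37, adjusted p = 0.00575). From 6 h to 72 h in untrained muscle 3 fell, where 9.04% of all genes passed, led by Zfand2a (-0.79, adjusted p = 0.00659). Of 11 tested genes of antigen presentation, Calr and Irf1 passed at 0 h in untrained and trained muscle (7.46% and 9.37% of all genes). Calr rose by 0.39 in both states, and Irf1 fell by 0.48 and 0.41. Against sedentary muscle, 0 of the 11 passed at 6 h (9.47% and 10.4% of all genes) or 72 h (0.00846% and 0.254%). From 0 h to 6 h in trained muscle, Irf1 rose (0.33, adjusted p = 0.0324) and H2-D1 and Calr fell (-0.36 and -0.29, adjusted p = 0.0236 and 0.0400), 3 of 11 where 25.1% of all genes passed. B2m passed in no comparison. Tap1 was below the level needed for testing.

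Promoter windows of the RefSeq table were found for 41 of the 49 members, and no entry was matched for Psma8, Psmb1, Psmb2, Psmb7, Psmc3, Psmd3, Psmd7 and Psmg2. The antioxidant response element, known as the site through which Nfe2l1 acts on proteasome genes, occurred in 6 members (14.6%, against 12.4% of 32851 windows). It is shown for 3 of them in 30 bases, with the match in capitals, at chr14:54855480-54855509 on the reverse strand for Psmb5, chr11:70416164-70416193 on the forward strand for Psmb6 and chr11:107370104-107370133 on the forward strand for Psmd12, where the match is on the opposite strand.
Psmb5: cgtgaagttgTGACGTCGCggcgttgccag
Psmb6: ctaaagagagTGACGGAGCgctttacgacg
Psmd12: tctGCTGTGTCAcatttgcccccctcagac
The other members with this element were Psmc6, Psmd9 and Psme4. Psmb5 and Psmb6 fell only from 0 h to 6 h in trained muscle, as described above, and Psmd12 passed in no comparison. The NF-Y box occurred in 14 members (34.1%, against 37.4%), the interferon element in 5 (12.2%, against 3.44%), which were Psmb3, Psmd4, Psmd9, Psme1 and Psmg4, the STAT site in 3 (7.32%, against 8.30%), the heat shock element in 3 (7.32%, against 7.86%), the AP-1 site in 2 (4.88%, against 7.81%) and the cyclic AMP element in 0 (against 1.79%). The AP-1 and cyclic AMP elements were added to the search after values of these genes had been seen. A match to such letters is a description and not a site of binding.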

How the data were processed

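Bulk RNA-seq of quadriceps muscle was analysed in 21 libraries of 7 groups. Before deposition, the authors mapped reads from unstranded TruSeq RNA v2 libraries to GRCm39 with STAR (2.7.9 in the submitters' processing notes) and quantified them with salmon 1.5.0. The annotation they used is not given in the sources used here. The deposited values are TPM per gene symbol, scaled by the authors to nearly the same total in each library. They carry no counts, so depth is unknown and precision rests on 3 libraries per group. All columns were assigned by their names, and 0 were left over.

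TPM values were transformed to log2(TPM + 0.5), and the 11819 genes whose mean reached 1 TPM were fitted with limma 3.58.1 in R 4.3.3 (7 group means, variance trend, 14 residual degrees of freedom) for 13 comparisons, with Benjamini-Hochberg adjustment over all tested genes. The fit was tested on simulated data. Fold changes on this scale understate changes of low genes. The shared library was kept in both groups in the main fit.

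The members and the lists of partner genes and of cell markers were chosen with earlier results of these data known. Named were the catalytic, immunoproteasome, activator, inhibitor and assembly genes with Psmd4 and Psmd11, the extremes of each class, the 3 passing members with the largest change per comparison in each direction, members that were not tested, and fixed partner genes with the largest change per list. Psmd3, Psmd5, Psmd8, Psmd9, Psmd14 and other members that pass or stand apart outside this rule were chosen after their values were seen. Pseudocounts of 0.1 and 1, filters, 2 other scalings, fits to the compared groups, quality weights, a replicate block, and leaving out libraries were tried as alternatives. Replicate numbers did not pair the samples (62 same-numbered pairs, r of their deviations between -0.12 and 0.13). Exons came from GENCODE vM39. Plots used matplotlib 3.10.9 (Python 3.11.15). 1 partner gene is not reported here.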

Additional observations from a re-analysis of the deposited data

Results flagged for a closer look

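Psmd11 differed between trained and untrained muscle at 6 h after exercise by a test of the difference itself, with a log2 difference of -0.52 (adjusted p = 0.00181, limma). All 3 trained libraries (35.7 to 44.1 TPM) lay below all 3 untrained libraries (54.6 to 59.0 TPM).

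At 72 h, 3 members lay on opposite sides of the sedentary mean, with every untrained library above it and every trained library below it. These were Psma7 (log2 difference of trained from untrained muscle -0.16, adjusted p = 0.460), Psmb5 (-0.23, adjusted p = 0.190) and Psmd14, the deubiquitinase of the lid (-0.25, adjusted p = 0.420). The direct comparison of trained with untrained muscle did not pass for any of the 3, and the opposite course relative to sedentary muscle was not tested further. It was read from TPM as deposited and was not recomputed under other scalings. The mitochondrial share at 72 h was 42.3% to 44.3% in untrained and 46.7% to 48.0% in trained libraries. The share of all tested genes with this pattern was not counted. The groups held 3 libraries each, too few for a test of single outlying libraries.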

How the results depend on the processing

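Of 442 recomputed counts of members, 375 stayed within 1.5 times the value in the report and 67 moved, and of 440 recomputed fold changes of passing members 294 still passed, 146 did not and 0 changed sign. The causes were not tested. All moved counts below are members passing at any fold unless stated. They are given without the share of all genes in the same setting, so they describe only how the counts move.

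With a mean of at least 5 TPM, the count was 1 instead of 0 for untrained 0 h against sedentary, 5 instead of 3 for trained 0 h against sedentary and 1 instead of 2 from 0 h to 6 h in untrained muscle. With no filter, it was 0 for trained 0 h, 6 instead of 13 from 0 h to 6 h in trained muscle, and 1 instead of 2 from 6 h to 72 h in both states. With median-of-ratios scaling, it was 0 for trained 0 h, 2 instead of 1 for trained 6 h against sedentary and for trained against untrained at 6 h, 1 from 0 h to 6 h in trained muscle and 6 from 6 h to 72 h in untrained muscle. With the mitochondrial genome and the highest 10 genes removed, the same 5 counts were 0, 3, 2, 1 and 4. With sample quality weights, it was 2 for untrained 0 h, 5 for trained 0 h, 1 instead of 0 for trained 72 h, 2 for trained against untrained at 6 h and 3 instead of 0 at 72 h, 6 from 6 h to 72 h in untrained and 4 in trained muscle. Without the shared library, it was 0 for trained 0 h, 1 for trained 72 h, 2 for trained against untrained at 6 h and 1 at 72 h, 6 from 0 h to 6 h in trained muscle (1 instead of 0 at the fold threshold) and 4 from 6 h to 72 h in untrained muscle. With only the groups compared, it was 1 for untrained 6 h, 0 for trained 0 h and trained 6 h, 0 for trained against untrained at 6 h, 1 from 0 h to 6 h in each state and 1 from 6 h to 72 h in untrained muscle. Without the variance trend, it was 1 from 6 h to 72 h in trained muscle.

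Leaving out 1 library at a time gave 0 to 2 members for untrained 0 h, 1 to 4 for untrained 6 h, 0 to 5 for trained 0 h, 1 to 2 for trained against untrained at 6 h (0 to 1 at the fold threshold), 1 to 2 from 0 h to 6 h in untrained and 2 to 13 in trained muscle (0 to 1 at the fold threshold), 1 to 3 from 6 h to 72 h in untrained muscle and 1 in trained muscle. With the replicate number as a block, 1 instead of 2 members passed from 6 h to 72 h in trained muscle, and no other count moved by over 1.5 times. Same-numbered libraries did not deviate together (median r = 0.02), so the number is not taken as a pairing. Depth is unknown, and 3 libraries per group limit what small shifts can be shown.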

Other observations

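Of the 49 members, 25 share exonic bases with another annotated gene, 4 of them on the same strand. The largest totals of shared exonic bases were 2817 between Psmb7 and Nek6, 2192 between Psme1 and Emc9 and 1269 between Psmc5 and Smarcd2. All these pairs lie on opposite strands. These genes were chosen by the number of shared bases. Without strand, reads from shared bases cannot be told apart.

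In trained muscle at 6 h, Psmd12, another lid subunit, was 40.6, 40.3 and 42.6 TPM, above all sedentary libraries (36.6, 35.4 and 29.3 TPM), with a log2 fold change of 0.29 (adjusted p = 0.0724). It was 31.1, 34.7 and 40.3 TPM in untrained muscle at 6 h, which overlapped with the sedentary libraries. Psmd12 was named after its values had been seen.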
